A study of Mus musculus with 4 samples.

Results

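Forkhead genes of the mesenchymal classes F, L, C, D, Q and S were followed in cells of the dental follicle, the connective tissue sheath around a developing tooth. The set holds 9 genes chosen by symbol (Foxf1, listed as Foxf1a, Foxf2, Foxl1, Foxc1, Foxc2, Foxd1, Foxd2, Foxq1 and Foxs1), out of 44 forkhead genes and 23107 genes in the deposited tables. RNA came from mandibular molars of mice at postnatal day 8, after tamoxifen at postnatal day 3, from sorted tdTomato-positive cells that the labels call PTHrP+. The groups were heterozygous for Ptch1, labelled Ptch1(+/-) and cHet, and null, labelled Ptch1(-/-) and cKO, both described as conditional, with 2 libraries in each. All 4 libraries share the tamoxifen, the reporter and at least 1 targeted Ptch1 copy, so no group has both copies intact, and no label names the driver of recombination. Nothing in the labels says whether a library is 1 animal or a pool, so p-values reflect no more than how these libraries scatter, part of which may be technical.

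Forkhead proteins bind DNA through a winged-helix domain, and the mesenchymal classes pattern connective tissue in gut, lung, palate, kidney, meninges and skull. Foxf1, Foxf2 and Foxl1 are textbook targets of hedgehog signalling in mesenchyme next to an epithelium. Hedgehog ligand relieves the block that the receptor PTCH1 places on SMO, and GLI factors then act on target genes, among them Ptch1, Gli1 and Hhip.

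Of the 9 genes, 6 lie in a pair of clusters. On chromosome 8 (mm10, GENCODE vM21), Foxf1a (121084386 to 121088144, 2 exons), Foxc2 (121116171 to 121118895, 1 exon) and Foxl1 (121127940 to 121130644, 1 exon) lie on the plus strand within 43.6 kb from first to last start. On chromosome 13, Foxq1 (31556134 to 31560976, 1 exon), Foxf2 (31625816 to 31631403, 2 exons) and Foxc1 (31806633 to 31812476, 1 exon) lie on the plus strand, the last starting 250 kb (250499 bases) from the first. Foxd1 is far away on chromosome 13 (98354242 to 98359305, plus strand, 1 exon). Foxd2 is on chromosome 4 (114906282 to 114908873, minus strand, 1 exon) and Foxs1 on chromosome 2 (152931898 to 152933208, minus strand, 1 exon). Among the 9, only Foxf1a and Foxf2 thus have an intron in this annotation.

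RefSeq promoter windows (GRCm38.p6, 250 bases before to 50 after the start) were matched for 4 of the 9 genes, Foxf2, Foxc1, Foxd1 and Foxd2. The 250 bases before the start are printed for the members with both cKO libraries above both cHet libraries (below), with GC boxes (GGGCGG or, on the other strand, CCGCCC) in capitals.
Foxf2 (chr13:31625566-31625815, plus strand): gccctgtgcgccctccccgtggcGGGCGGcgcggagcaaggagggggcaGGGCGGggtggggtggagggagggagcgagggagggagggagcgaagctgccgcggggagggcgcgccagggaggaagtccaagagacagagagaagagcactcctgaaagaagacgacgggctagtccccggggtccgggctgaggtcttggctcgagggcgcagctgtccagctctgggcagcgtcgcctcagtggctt
Foxc1 (chr13:31806396-31806645, plus strand): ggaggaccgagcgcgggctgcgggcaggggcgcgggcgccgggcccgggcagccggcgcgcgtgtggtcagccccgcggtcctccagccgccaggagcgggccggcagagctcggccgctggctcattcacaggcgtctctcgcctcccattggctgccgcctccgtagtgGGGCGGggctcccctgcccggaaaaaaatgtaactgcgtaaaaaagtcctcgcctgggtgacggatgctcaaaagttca
Foxd2 (chr4:114908899-114909148, minus strand): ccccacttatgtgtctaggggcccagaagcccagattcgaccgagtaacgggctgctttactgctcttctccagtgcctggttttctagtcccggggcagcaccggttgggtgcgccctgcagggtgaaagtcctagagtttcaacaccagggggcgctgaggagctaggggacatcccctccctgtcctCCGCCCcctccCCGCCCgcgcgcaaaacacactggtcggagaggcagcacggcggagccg
These windows were rich in G and C. The GC content over the 300 bases was 71.3% in Foxf2, 67.3% in Foxc1, 67.7% in Foxd2 and 57.7% in Foxd1, against a median of 52.7% over 32851 RefSeq promoters. They held 27, 32, 26 and 15 CpG dinucleotides in that order, where the median promoter held 7. GC boxes numbered 2, 1, 2 and 1, and 35.7% of all promoters hold at least 1. The GLI motif GACCACCCA, its core CCACCCA (contained in it), the forkhead motif TGTTTAC and the TATA box TATAAA, searched on both strands, had 0 matches in the 4 windows. Of all promoters, 0.253%, 9.3%, 3.65% and 13.6% hold them, so that the letters of the full GLI motif are rare in windows of this length.

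Scaled totals were between 69361760 and 71228342 per library, where a scaled count is a gene's count after the authors' division by a library factor. Library cHet_1 stood apart, with 34 genes at 0 whose scaled count was 100 or more everywhere else, and the other libraries had 0 to 3 such genes. Ptch1, the targeted gene, had 12867 scaled counts in cHet_0, 5438 in cHet_1, 22420 in cKO_0 and 23341 in cKO_1, the order used throughout. Its counts are over the gene and not over a deleted exon, and the gene is itself induced by the pathway, so these values do not check the deletion. Of 16 follicle mesenchyme markers all were detected, with summed scaled counts of 7856666 and 8733612 in cHet and 5672152 and 5555099 in cKO. Genes of type I and III collagen made up most of these sums. Of the 16, 7 lay lower in both cKO libraries and 1 higher, where 14.2% and 18% of all genes tested did. The fold change was below 0 for 12 of them. Of 13 epithelial markers 12 were detected, summing to 593907 and 1503115 in cHet and 975921 and 2737457 in cKO, so the sorted cells also carried dental epithelium transcripts.

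The libraries differed by number in the relation between the deposited units. For 9933 genes with at least 100 scaled counts in every library, the ratio of FPKM (fragments scaled to transcript length and library size) to scaled count was compared between libraries. The log2 ratios were first centred on each library's median. The median absolute difference of the centred ratio was 0.03 log2 units between cHet_0 and cKO_0 and 0.09 between cHet_1 and cKO_1. Between libraries of different number it was 0.48 to 0.59. Without centring, Foxf1a had 16.4 and 17.6 FPKM per 1000 scaled counts in cHet_0 and cKO_0 but 34.6 and 32.4 in cHet_1 and cKO_1. Foxc1 had 4.14 and 4.20 against 1.35 and 1.61. The libraries therefore fall into 2 sets by number, each with 1 cHet and 1 cKO library. No label says what set them apart, and FPKM is comparable between groups only within a number.

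**Figure D1:**
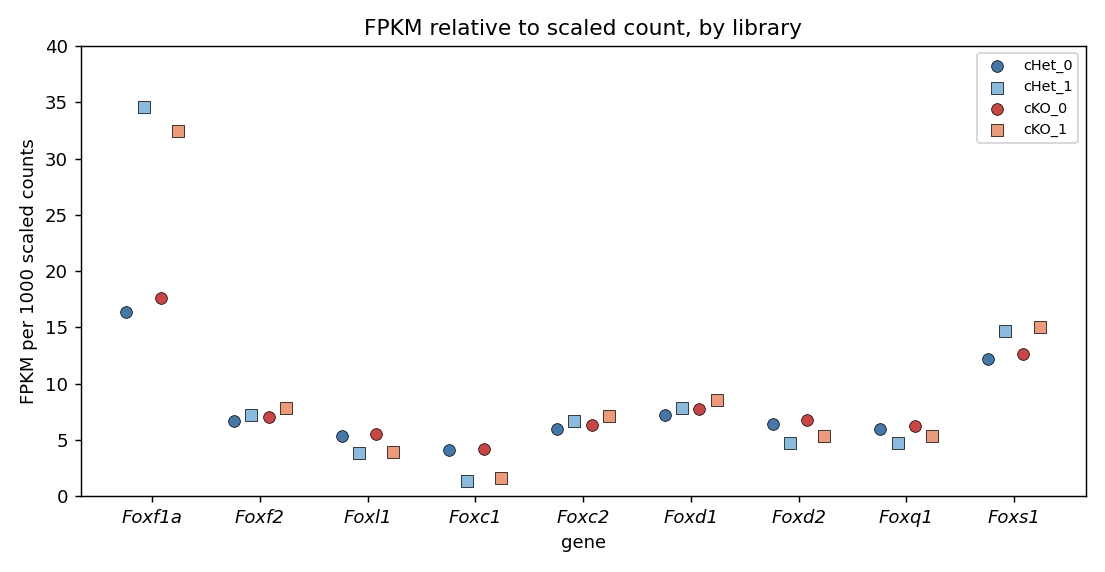
FPKM per 1000 scaled counts (linear axis) for each of the 9 genes, 1 point per library, circles for libraries numbered 0 and squares for those numbered 1. The libraries separate by number for Foxf1a (16.4 and 17.6 against 34.6 and 32.4) and Foxc1 (4.14 and 4.20 against 1.35 and 1.61). The points of Foxf2 and Foxd1 lie close together in these values, which are not centred on the library median. After centring, Foxf2 was 0.92 log2 units higher in the libraries numbered 1.

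Per transcript length, 3 of the genes were far more abundant than the rest. Foxf1a had an FPKM of 258 and 470 in cHet and of 474 and 890 in cKO. Foxf2 had 147 and 133 in cHet and 300 and 217 in cKO, and Foxq1 had 115 and 49.8 in cHet and 185 and 155 in cKO. These 3 ranked 1, 2 and 3 among all 44 forkhead genes by mean FPKM, and they made up 94.9% to 97.5% of the summed FPKM of the 9 genes. The FPKM means of Foxf1a exceeded those of 99.6% of all genes in cHet and 99.8% in cKO. In scaled counts, however, Foxf2 exceeded Foxf1a in every library (21864 against 15691 in cHet_0, 27617 against 27498 in cKO_1). Their annotated exon lengths are alike, at 2415 bases for Foxf1a and 2363 for Foxf2. The order of Foxf1a and Foxf2 thus depends on the unit, and the reason was not tested.

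The order Foxf1a, Foxf2, Foxq1, Foxd2 by FPKM held in 4 of 4 libraries, although the ranges of Foxf1a and Foxf2, and of Foxf2 and Foxq1, overlapped across libraries. Foxd2 came next, with an FPKM of 11.8 and 8.01 in the cHet libraries, and of 31.1 and 12.6 in the cKO libraries. Foxs1 followed with 4.98 and 8.40, against 5.30 and 8.18. Foxc2, Foxc1, Foxd1 and Foxl1 had mean FPKM of 3.67, 3.0, 1.78 and 0.316 over the 4 libraries. In the lower part the order was not stable: Foxd2 exceeded Foxs1 in 3 of 4 libraries, Foxc2 exceeded Foxc1 in 2 of 4, and Foxd1 exceeded Foxl1 in 2 of 4. The non-member with the highest mean FPKM was Foxn3, at rank 4 with 45.5.

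**Figure D2:**
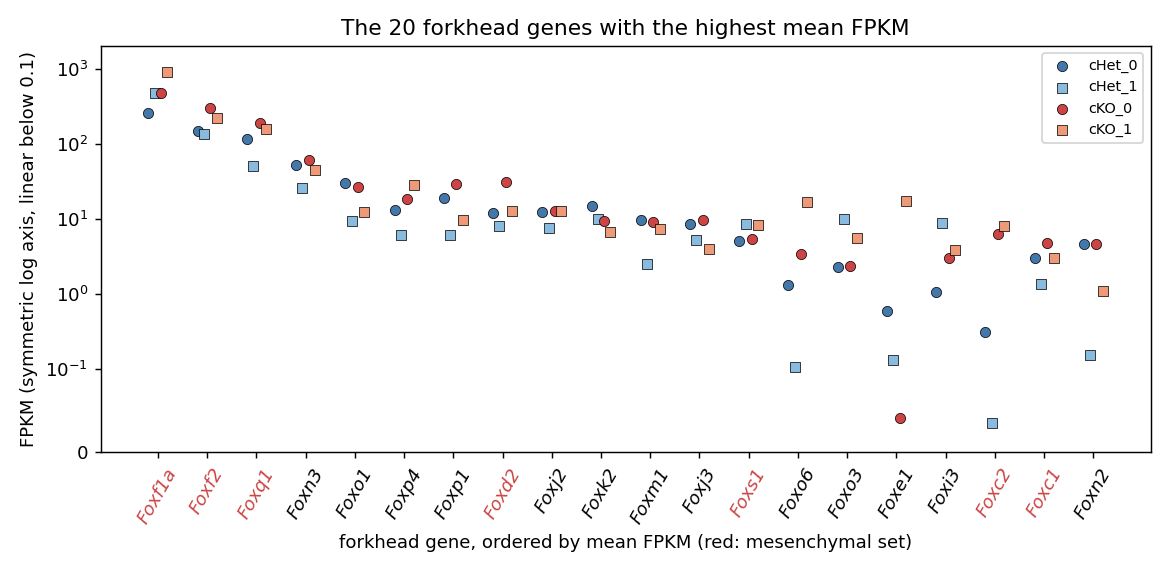
FPKM (symmetric log axis) of the 20 forkhead genes with the highest mean, 1 point per library, ordered by mean, with the mesenchymal set in red. Foxf1a, Foxf2 and Foxq1 take ranks 1 to 3, above Foxn3, and Foxc2 spans 0.035 in cHet_1 to 7.99 in cKO_1.

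The comparison of cKO with cHet asks which transcripts differ when both Ptch1 copies rather than 1 are targeted. For 7 of the 9 genes both cKO libraries lay above both cHet libraries in scaled counts, Foxf1a, Foxf2, Foxl1, Foxc1, Foxc2, Foxd2 and Foxq1, where 18% of the 14297 genes tested did so. None lay below, where 14.2% of all genes did. Within both library numbers cKO exceeded cHet for 8 of the 9, Foxd1 being the additional one, where 30% of all genes did. A log2 fold change above 0 was found for 8 of the 9, where 56.3% of all genes had one. The median log2 fold change of the 9 was 0.90, where that of all genes tested was 0.12. None of the 9 passed a Benjamini-Hochberg adjusted p of 0.05 over all genes in limma (0 of 14297 genes did, 0%), and 4 of the 9 had an unadjusted p under 0.05 with higher values in cKO, as had 1.54% of all genes. These were Foxf1a, Foxf2, Foxc2 and Foxq1, and 0 members were lower at that level, where 1.49% of all genes were. In this bulk RNA, more cells of a type that holds a transcript and more RNA per cell cannot be told apart. With 2 libraries a group, an exact permutation test of a single gene cannot go below a two-sided p of 0.333.

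**Figure D3:**
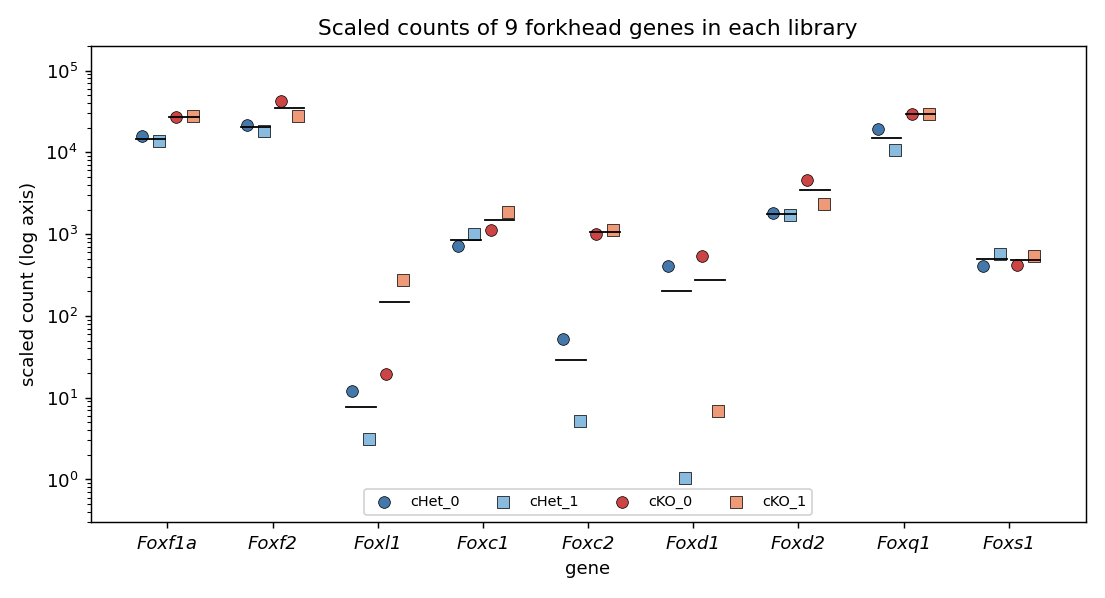
Scaled counts (log axis) of the 9 forkhead genes, 1 point per library, cHet in blue and cKO in red, circles for number 0 and squares for number 1, with a line at each group's mean. Both red points lie above both blue points for 7 genes. Foxd1 instead splits by library number, and Foxs1 lies between 408.9 and 572.4 in all libraries.

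Among the class F and L genes, Foxf1a, required for mesoderm and for lung and gut mesenchyme, had scaled counts of 15691 in cHet_0 and 13577 in cHet_1, and of 26937 in cKO_0 and 27498 in cKO_1. The lower cKO library was 1.72 times the higher cHet library, and each pair of replicates lay close together. On the log2(scaled count + 3) scale the fold change was 0.90 (SE 0.23, limma adjusted p = 0.913), and the difference was 0.78 between the libraries numbered 0 and 1.02 between those numbered 1. Over 19 alternative settings it lay between 0.79 and 1.003, with the adjusted p from 0.054 to 1.

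Foxf2, needed for palate and for pericytes of brain vessels, had 21864 and 18388 scaled counts in the cHet libraries, and 42634 and 27617 in the cKO libraries. Library cKO_0 was well above cKO_1, and the groups did not overlap. Its log2 fold change was 0.78 (SE 0.28, limma adjusted p = 0.913), with 0.96 between the libraries numbered 0 and 0.59 between those numbered 1. It was 0.46 without cKO_0.

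Foxl1, a gene of subepithelial gut mesenchyme, was near the bottom of the range in 3 libraries, at 12.15 and 3.14 in cHet and 19.39 in cKO_0, and stood at 273.5 in cKO_1. The groups did not overlap, but the separation between cHet_0 and cKO_0 is of a few counts. Its log2 fold change of 3.03 had an SE of 2.57 (limma adjusted p = 0.913) and was 1.22 without cKO_1 and 4.84 without cKO_0. Library cKO_1 also had the highest summed markers of Schwann cells (42742 against 15934 to 28394 elsewhere), of endothelium (15746 against 2739 to 6407), of leukocytes (13475 against 1704 to 8703) and of epithelium (2737457 against 593907 to 1503115). Cdh19 and Cldn4 were at 0 in every library. Schwann markers were higher in both cKO libraries for 4 of 8 tested and leukocyte markers for 2 of 10, where 18% of all genes were. The part of RNA from such cells in the Foxl1 value was not tested.

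Foxc1 and Foxc2 are class C genes of skull, eye and vessel development, and Foxc2 also marks lymphatic endothelium. Scaled counts of Foxc1 were 714.2 and 1000 in the cHet libraries, and 1120 and 1854 in the cKO libraries. Libraries numbered 1 were higher than those numbered 0 in both groups, and cHet_1 lay just under cKO_0. For Foxc1 the log2 fold change was 0.77 (SE 0.83, limma adjusted p = 0.92), with 0.65 and 0.89 within numbers 0 and 1. It was 0.41 without cKO_1, and the groups overlapped after median-of-ratios or TMM rescaling.

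Foxc2 showed the largest difference of the 9 genes in these scaled counts. The cHet libraries had 52.63 and 5.233 scaled counts, the cKO libraries 1002 and 1122. It was thus low in both cHet libraries and alike in both cKO libraries. The lower cKO library was 19.0 times the higher cHet library. Foxc2 had a log2 fold change of 5.63 (SE 2.12, limma adjusted p = 0.913), with 4.18 within number 0 and 7.09 within number 1. The SE comes from limma, which draws it toward that of genes of like abundance. By length, Foxc2 went from 0.314 and 0.035 FPKM in cHet to 6.33 and 7.99 in cKO, below Foxd2 in each library, so that the largest relative difference belonged to a gene of modest level. Without cHet_0, in a limma fit of 1 library against 2, Foxc2 passed (adjusted p = 0.0216), as did Foxq1 (adjusted p = 0.0267), and 7.42% of all genes were called higher in that fit.

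Some endothelial markers were higher in both cKO libraries, and others overlapped between the groups. Of 13 in the list 11 were tested, and 0 of the 13 were at 0 in every library. Of those tested, 5 lay higher in both cKO libraries and 0 lower, where 18% and 14.2% of all genes did. Their median log2 fold change was 3.16. Pecam1, an endothelial adhesion molecule, had 0 and 5.233 scaled counts in the cHet libraries, with 299.5 and 1278 in the cKO libraries. Cdh5, the endothelial cadherin, had 40.49 and 69.07 against 470.8 and 873.7. The log2 fold change was 6.24 (SE 2.48) for Sox17 and 5.68 (SE 2.44) for Cldn5. The summed endothelial markers were 2739 and 6407 in cHet and 3988 and 15746 in cKO, which overlapped. Kdr made up 4054 of the 6407 in cHet_1, and its log2 fold change was -0.17 (SE 0.56). Tie1 followed the library number, with 4.049 and 1620 scaled counts in cHet and 4.309 and 2125 in cKO. Flt1 and Vwf were high in cKO_1 only, at 1382 and 2122, and were lower in cKO_0 than in cHet_0. The part of endothelial RNA in the Foxc2 value was not tested.

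Of the class D genes, Foxd2 is expressed in cranial and kidney mesenchyme and Foxd1 in kidney stroma and other mesenchymal progenitors. The cHet libraries had 1832 and 1690 scaled counts of Foxd2, the cKO libraries 4573 and 2363. The cHet libraries lay close together, and cKO_0 was far above cKO_1. Foxd2 had a log2 fold change of 0.90 (SE 0.54, limma adjusted p = 0.913), with 1.32 within number 0 and 0.48 within number 1. It was 0.42 without cKO_0 and 1.38 without cKO_1.

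Foxd1 followed the library number and not the group. Scaled counts were 407.3 in cHet_0 and 536.5 in cKO_0, but 1.046 in cHet_1 and 6.808 in cKO_1. Within each group the library numbered 1 was lower, by a log2 difference of -6.66 in cHet and -5.78 in cKO, which in size exceeds every group difference of the set except that of Foxc2 within number 1. The difference between groups was 0.40 within number 0 and 1.28 within number 1, the latter between values of a few counts. The log2 fold change was 0.84 (SE 3.20, limma adjusted p = 0.988). It was -2.50 without cHet_1 and -2.06 without cKO_0, fits in which the library numbers are unequal between the groups.

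Foxq1, a class Q gene known from hair and stomach lining and placed beside Foxf2 and Foxc1, had 19296 and 10632 scaled counts in the cHet libraries, and 29745 and 29112 in the cKO libraries. The cKO libraries lay close together and cHet_1 was the lowest. Foxq1 had a log2 fold change of 1.04 (SE 0.31, limma adjusted p = 0.913), with 0.62 within number 0 and 1.45 within number 1. It was 0.61 without cHet_1. Foxq1 is also expressed in epithelia. The summed epithelial markers given above overlapped between the groups, and enamel matrix genes made up most of those sums. Of 12 tested markers, 0 lay higher in both cKO libraries and 2 lower, where 18% and 14.2% of all genes did. The part of epithelial RNA in the Foxq1 values was not tested. Foxs1, a gene of pericytes and the neural crest, had 408.9 and 572.4 scaled counts in the cHet libraries, and 419.1 and 546.9 in the cKO libraries. The values paired by number and not by group, and the log2 fold change was -0.02 (SE 1.32, limma adjusted p = 0.999). Differences within numbers 0 and 1 were 0.04 and -0.07. Pericyte and smooth muscle markers summed to 110200 and 108676 in cHet and 121878 and 140088 in cKO. Of 11 tested, 2 lay higher in both cKO libraries and 1 lower, where 18% and 14.2% of all genes did. The part of pericyte and smooth muscle RNA in the Foxs1 values was not tested.

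**Figure D4:**
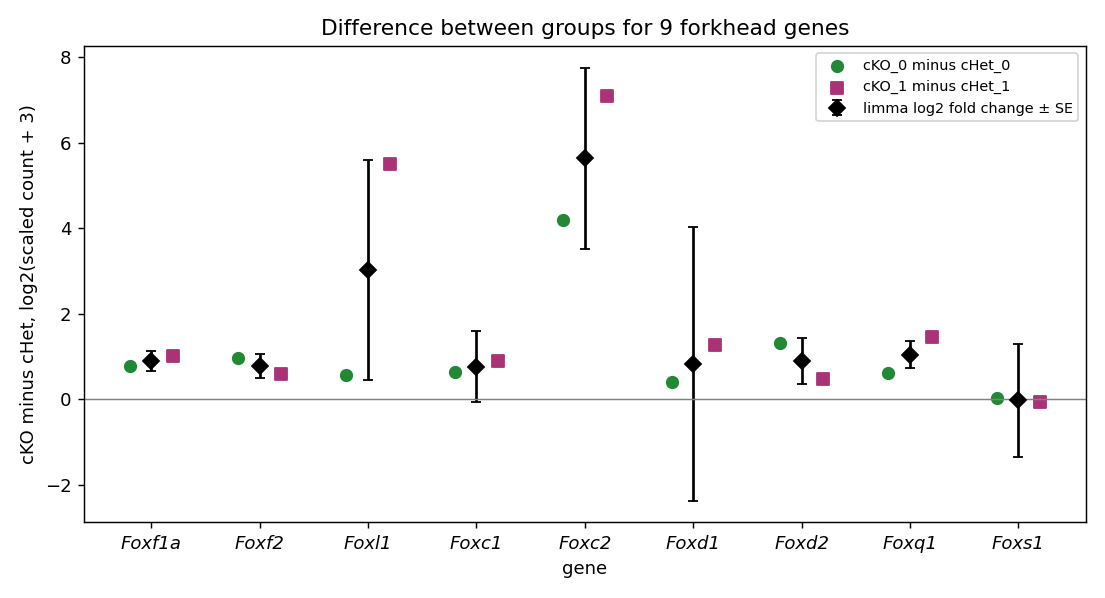
Difference between cKO and cHet in log2(scaled count + 3) for the 9 genes, with the limma log2 fold change ± SE in black and the difference between the libraries numbered 0 (green circles) and 1 (purple squares). Both differences lie above 0 for 8 genes, Foxf1a and Foxc1 differ little between numbers (0.78 and 1.02, 0.65 and 0.89), and the limma value is highest for Foxc2 (5.63) and then Foxl1 (3.03), with SE bars that overlap.

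Neighbouring genes of other families were set beside the clusters, from a list of 15 of which 12 were in the tables and 9 were tested. None passed, and the median log2 fold change was 0.72. Higher in both cKO libraries were 3 and lower 0, where 18% and 14.2% of all genes were. Mthfsd, whose start lies between those of Foxf1a and Foxc2, 24006 bases from the former, had 1974 and 875.9 scaled counts in the cHet libraries, and 2094 and 2575 in the cKO libraries. Its values in cHet_0 and cKO_0 were alike, and its log2 fold change of 0.82 (SE 0.66) came with a low cHet_1. Further out on chromosome 8, Fbxo31, Irf8 and Gse1 had log2 fold changes of 0.32 (SE 0.39), 2.86 (SE 2.55) and 0.20 (SE 0.39), and Gse1 lay higher in both cKO libraries by a small margin. Around the chromosome 13 cluster, Exoc2, an exocyst gene, had 4974 and 4373 against 6599 and 8947 (0.72, SE 0.33), and Gmds, an enzyme of fucose synthesis, had 1994 and 1366 against 1773 and 1679 (0.06, SE 0.62). Near Foxs1, Dusp15 had 12.15 and 6.279 scaled counts against 0 and 581, and Ttll9 had 11.34 and 1.046 against 40.94 and 1.135, both without a group pattern. The remaining tested gene, Btf3l4, lies on the chromosome of Foxd2 but far from it (0.24, SE 0.41). Irf4, Hus1b and Mylk2 were in the tables but below the minimum for a test.

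**Figure D5:**
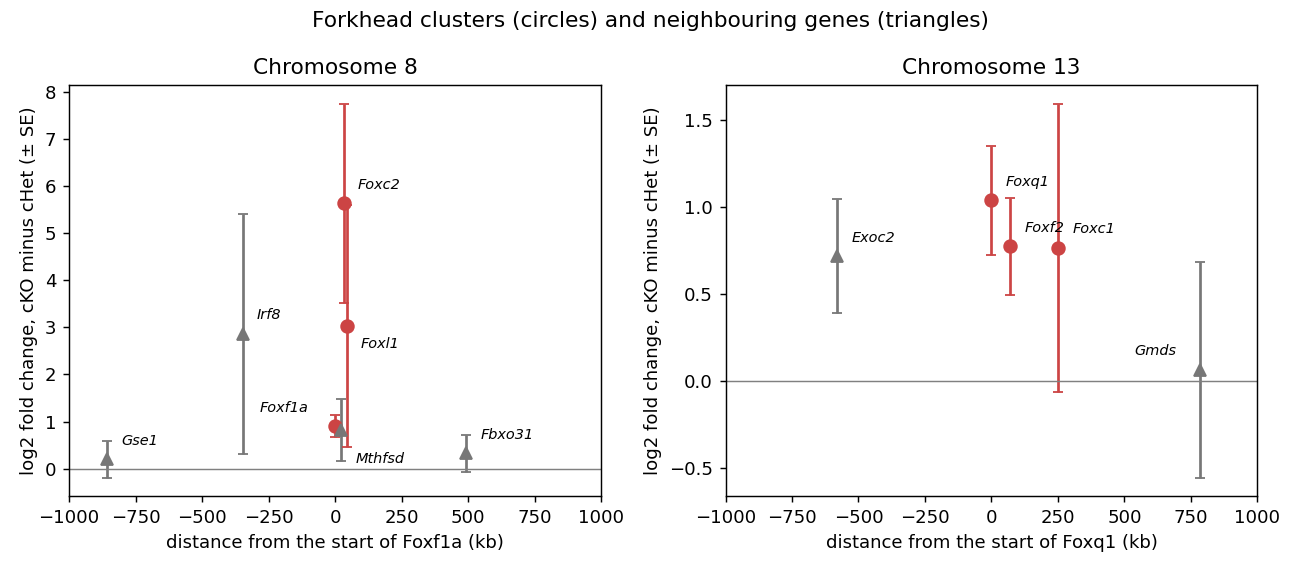
Log2 fold change (± SE, limma) of the forkhead members (red circles) and tested neighbouring genes (grey triangles) by distance in kb from the start of Foxf1a (left) and of Foxq1 (right). The y axes differ. The members of the chromosome 13 cluster lie between 0.77 and 1.04 and those of chromosome 8 between 0.90 and 5.63, and the neighbours range from 0.06 (Gmds), 0.20 (Gse1) and 0.32 (Fbxo31) to 0.72 (Exoc2), 0.82 (Mthfsd) and 2.86 (Irf8).

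Listed hedgehog genes were compared in the same way. Of 23 listed pathway and target genes 22 were tested, none passed, and the median log2 fold change was 0.45. A fold change above 0 was found for 19, where 56.3% of all genes had one. In both cKO libraries 9 lay higher and 3 lower, where 18% and 14.2% of all genes did. The 9 include Ptch1, the targeted gene. They also include Sufu and Igfbp6, which were low in cHet_1 (32.44 and 26.16) but not in cHet_0 (3052 and 1806). The 3 were Gli3 (-0.50, SE 0.31), Gas1 (-0.17, SE 0.23) and Ccnd1 (-0.74, SE 0.48). Gli1, the transcription factor that serves as pathway readout, had 4132 and 3350 scaled counts in the cHet libraries, and 6388 and 6955 in the cKO libraries (0.84, SE 0.34). Hhip, an induced inhibitor of ligand, had a log2 fold change of 1.45 (SE 0.24). The fold changes of Foxf1a, Foxf2, Foxc1, Foxd2 and Foxq1, from 0.77 to 1.04, lay near that of Gli1 and below that of Hhip. That of Foxd1 (0.84) did too, but with an SE of 3.20. Foxl1 (3.03, SE 2.57) and Foxc2 (5.63, SE 2.12) lay above Hhip, and Foxs1 (-0.02, SE 1.32) lay below Gli1. The differences between genes were not tested.

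Where the scaled count averaged 1000 or more, the patterns most like Foxf1a over the 4 libraries were those of Arl15, Sh3d19, Gli1, Pgp and Polr2f, of 8963 genes. Likeness was the root mean square difference of log2 values centred on each gene's mean, and it was 0.04 for Arl15 and 0.06 for Gli1. For Foxf2 the nearest were 1810043G02Rik, Ppm1f, Vegfb, Radil and Prim1, at 0.06 to 0.08. Among the members of this level, Foxd2 was nearest to Foxf2 (0.14, rank 28) and Foxf1a came at rank 250 (0.24). With 4 libraries these are descriptions of few values.

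Forkhead genes outside the set were given the same comparison. Of 35 outside the set, 18 were tested and 11 were at 0 in every library. None passed, and the median log2 fold change was 0.49. In both cKO libraries 5 lay higher and 2 lower, where 18% and 14.2% of all genes did. Foxp4 had 3607 and 1388 scaled counts in the cHet libraries, and 4786 and 6036 in the cKO libraries (1.26, SE 0.53), and Foxp1 had 8984 and 10507 against 14272 and 13990 (0.54, SE 0.26). Foxo6 had 203.2 and 8.372 against 494.5 and 1390 (4.10, SE 2.16). In the other direction, Foxj1, the regulator of motile cilia, had 99.6 and 541 against 2.155 and 4.539 (-5.24, SE 2.45). The difference between the set and the other forkhead genes was not tested.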

How the data were processed

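Per the labels' protocols, RNA of the sorted cells was isolated with a PicoPure kit, amplified with SMART-Seq v4 and made into Nextera XT libraries. The submitters' processing notes name mm10, DESeq2, HTSeq, Cuffdiff, Cufflinks, FastQC, Bowtie2 (2.2.1) and TopHat2 (2.0.13), without their roles. The strandedness of counting was not found in the labels or headers. The annotation places Fendrr next to Foxf1a and Foxd2os next to Foxd2, each on the opposite strand and without overlap. In the deposited scaled counts, a signal unit, gene counts were divided by the authors by a factor for each library. FPKM, also from the authors, corrects for transcript length as well. A further 4 tables, of raw, depth-normalized and rlog counts by their file names, have 16 columns whose names are found in no label, and they were not used. Columns number libraries from 0 where titles start at 1, so a column was tied to its group only.

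Planned count tests were not run, since the raw count columns could not be tied to a group and scaled counts could not be turned back into whole reads throughout. The test was limma 3.58.1 in R 4.3.3 (moderated spread with a trend on the mean) on log2(scaled count + 3), over 14297 genes with at least 10 in at least 2 libraries. Group was the only term, and p was two-sided and Benjamini-Hochberg adjusted over all genes, with a threshold of 0.05. The fit was also run on simulated negative binomial counts. These had no split by library number and no genes lost from a single library. That run therefore does not show how the fit performs on these libraries. Scaled totals of 69361760 to 71228342 leave little counting error in abundant genes, but PCR copies are not separate molecules, and genes with few counts are imprecise. Fold changes on this scale understate those of low genes. The members, lists and settings were chosen with earlier results of these data known. The text names the 9 members, up to 4 tested genes of lowest p in a list it describes, the cluster neighbours and the 5 genes most like Foxf1a and Foxf2. A gene that this rule would name is not reported here. Alternatives changed the pseudocount, filter, scaling, unit, weights, trend and libraries.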

Additional observations from a re-analysis of the deposited data

How the results depend on the processing

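Over all genes, limma called 0 in the fit of the report, 7 with log2(FPKM + 1) and 2 with log2(FPKM + 0.1). Leaving out 1 library gave 0 to 1139 calls on the genes tested with all 4 libraries: 1139 with cHet_0 removed, 0 for cHet_1, 12 for cKO_0 and 42 for cKO_1. This was first run with the filter reapplied to the 3 libraries left, which gave 1718, 32, 12 and 42 calls. The gene set was held fixed after those counts were seen, and both versions are given. A lone library is there assumed to vary like the others. Forkhead members called numbered 0 to 2, the 2 being Foxc2 and Foxq1 without cHet_0 in both versions. Members higher without overlap numbered 6 to 8 over the settings run, where the share of all genes was 11.2% by FPKM, 15.8% with TMM rescaling and 27.7% to 46.7% with 1 library left out. Median-of-ratios and TMM rescaling moved the median log2 fold change of all genes from 0.12 to 0.02 and 0.016, and those of the 9 members also moved down (Foxf1a to 0.79 in both), with no change of sign. Over the libraries left out, Foxd1 ranged from -2.50 (without cHet_1) to 4.17 and was -2.06 without cKO_0. Foxs1 ranged from -0.26 to 0.23 (without cHet_1), was 0.18 without cKO_0, and was 0.021 and 0.026 with log2(FPKM + 1) and log2(FPKM + 0.1). The cause was not tested. With the column number as a replicate block, added after the data were seen, 0 genes and 0 members were called. That number is not tied to a sample title. The planned count tests on recovered reads were not run.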

Other observations

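The pattern of Foxd1, present in the libraries numbered 0 and near 0 in those numbered 1, was shared by other genes. Chosen after the values were seen, 195 genes had at least 100 scaled counts in both libraries numbered 0 and under 25 in both numbered 1, and 20 genes the reverse. By group, 50 genes had at least 100 in both cKO libraries and under 25 in both cHet libraries, and 23 the reverse. Among the 14297 genes tested, those closest to Foxd1 by the same measure of likeness were Wbscr17, Corin, Tmem149, Nadsyn1 and Mblac2. Corin, a protease that processes natriuretic peptide, had 710.9 and 5.233 scaled counts in the cHet libraries, and 899.6 and 13.62 in the cKO libraries. The reason for the split by number was not tested.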
